A study of Homo sapiens with 8 samples.

Results

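The EGFR family set comprised 8 genes of the 19892 in the deposited table, listed by symbol with no threshold on a measured value, though with earlier results of these data known: the receptor genes EGFR, ERBB2 and ERBB3 and the ligand genes AREG, EREG, HBEGF, TGFA and NRG1. All 8 were found in the table and all 8 had enough counts to be tested in each comparison. They were measured in MDA-MB-231, a widely used triple-negative breast cancer cell line, a class that lacks estrogen and progesterone receptor expression and amplification of ERBB2. Cells received either control siRNA or ADAR1 siRNA, directed at the enzyme encoded by ADAR that edits adenosine to inosine in double-stranded RNA, and no other treatment is named. Each siRNA was profiled by RNA-seq of short RNA fragments somewhat longer than footprints (Input) and by ribosome profiling (Ribo-seq), which sequences the fragments that ribosomes protect, with 2 libraries in each of the 4 groups. The labels do not state whether replicates came from separate cultures, and the p-values therefore reflect library-to-library spread that may be technical. An siRNA leaves part of its target in place, and all values come from 1 line.

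The receptors of this family are tyrosine kinases at the cell surface. A ligand makes receptors pair and phosphorylate each other, and adaptor proteins bound to the phosphorylated tails then feed the RAS-ERK, PI3K-AKT, phospholipase C and STAT pathways. Most ligands are made as membrane proteins and are cut loose by ADAM proteases. EGFR and its ligands are well known in basal-like breast cancer, where EGFR is often abundant.

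Input libraries held between 15732757 and 17153716 estimated counts and Ribo-seq libraries between 10492223 and 14875465. Levels below are in TPM, a unit that scales reads by transcript length and library. ADAR, the target, stood at 13.7% and 28.3% of the control mean in ADAR1 siRNA replicates 1 and 2 of Input, and at 7.87% and 42.7% in Ribo-seq, so the depletion was deeper in replicate 1 in both assays. The labelled cell type was checked against its markers: all 7 basal and mesenchymal genes were above 1 TPM in control Input, from SPARC at 1.16 to VIM at 4465 TPM. The luminal list was split. ESR1, PGR, FOXA1 and CDH1 were near 0, but the other 4 of its 8 genes were above 1 TPM. These were KRT8 at 713.6, KRT18 at 616.6, EPCAM at 13.4 and GATA3 at 7.41 TPM. Summed TPM of the basal and mesenchymal list was 7354 to 7387 in control and 7482 to 8042 in ADAR1 siRNA Input. The luminal list, which also holds the keratins KRT8 and KRT18, summed to 1348 to 1355 and 1204 to 1316 TPM. Immune, endothelial and fibroblast marker lists each summed to less than 5 TPM in every Input library. In bulk samples, fewer expressing cells and less RNA per cell cannot be told apart.

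Promoter sequences are shown for the neighbouring ligand genes AREG and EREG, for HBEGF, the ligand with the highest footprint level, and for EGFR, the most abundant receptor. They are the 250 bases before the first start site the table lists for each gene, 5′ to 3′ on the gene's strand, from RefSeq's table for GRCh38.p14. Entries matched 6 of the 8 members, the others being ERBB3 and NRG1. Capitals mark matches to the motifs searched, apart from GC boxes: the cyclic AMP response element (CRE) palindrome TGACGTCA, the AP-1 site TGANTCA, the TATA box TATAAA and the CCAAT box. AREG lies on chromosome 4 from 74445136 to 74455005, EREG from 74365145 to 74388749, with 56386 bases and 0 annotated genes between them. HBEGF lies on chromosome 5 from 140332843 to 140346603 and EGFR on chromosome 7 from 55019017 to 55211628.
AREG, chr4:74444886-74445135, plus strand: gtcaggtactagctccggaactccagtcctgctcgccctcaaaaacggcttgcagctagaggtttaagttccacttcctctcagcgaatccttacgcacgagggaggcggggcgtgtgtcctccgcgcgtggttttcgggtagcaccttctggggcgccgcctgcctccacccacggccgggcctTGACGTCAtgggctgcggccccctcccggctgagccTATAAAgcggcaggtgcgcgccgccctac
EREG, chr4:74364895-74365144, plus strand: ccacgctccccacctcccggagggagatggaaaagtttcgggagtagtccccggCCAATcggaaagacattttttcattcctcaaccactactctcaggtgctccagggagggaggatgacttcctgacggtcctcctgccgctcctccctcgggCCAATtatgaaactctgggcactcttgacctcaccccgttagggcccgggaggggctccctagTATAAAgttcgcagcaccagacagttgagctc
HBEGF, chr5:140346604-140346853, minus strand: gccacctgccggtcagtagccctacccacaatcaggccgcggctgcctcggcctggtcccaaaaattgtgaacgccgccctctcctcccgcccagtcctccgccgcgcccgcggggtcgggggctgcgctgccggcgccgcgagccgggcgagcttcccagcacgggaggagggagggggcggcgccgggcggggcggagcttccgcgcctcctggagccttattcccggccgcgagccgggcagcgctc
EGFR, chr7:55018767-55019016, plus strand: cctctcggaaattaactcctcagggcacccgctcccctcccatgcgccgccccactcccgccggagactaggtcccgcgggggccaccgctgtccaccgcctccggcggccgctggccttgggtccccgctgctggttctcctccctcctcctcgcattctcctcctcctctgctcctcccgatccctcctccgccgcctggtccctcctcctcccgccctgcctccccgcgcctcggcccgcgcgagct

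Motifs were searched on both strands of the 300 bases from 250 before to 50 after each start, and each position is that of the motif's first base relative to the start. AREG had a CRE palindrome at -65, a sequence present in 1.85% of the 35116 promoters in the table, and a TATA box at -29. EREG had a TATA box at -32 and CCAAT boxes at -196 and -95, and no CRE palindrome in this window. The TATA box was present in 11.5% of all promoters and the CCAAT box in 34.6%. HBEGF had neither a TATA nor a CCAAT box but 5 GC boxes (GGGCGG, found in 44.95% of promoters), and the window of the first EGFR start had 3. These lay at -204, -36 and 44, the last beyond the bases shown. EGFR has another start in the table, inside the gene, whose window (chr7:55109589-55109888) has AP-1 sites at -232 and -136, TATA boxes at -146 and -36, and a G and C share of 42%. The G and C share of the 300 bases was 66.3% in AREG, 57.7% in EREG, 75% in HBEGF and 75.3% at the first EGFR start. The median over all promoters was 58.7%. ERBB2, on chromosome 17 from 39688094 to 39728658, had an AP-1 site at -222, a motif held by 7.71% of promoters. These matches describe the letters only, and no binding was measured.

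EGFR was the most abundant member in control Input RNA, and the ligand HBEGF, heparin-binding EGF-like growth factor, was the most abundant in control footprints. In control Input the levels in TPM, from high to low, ran EGFR, NRG1, HBEGF, AREG, TGFA, ERBB2, EREG and ERBB3, from a mean of 165.3 to 2.75 TPM. No neighbours in that order had overlapping ranges. EGFR ranked at percentile 91.8 of the tested genes and ERBB3 at percentile 12.8. In control Ribo-seq the order was HBEGF, AREG, EGFR, TGFA, NRG1, EREG, ERBB2 and ERBB3, from a mean of 91.7 to 1.01 TPM. AREG and EGFR overlapped there, as did TGFA and NRG1, and the other neighbours did not.

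**Figure D1:**
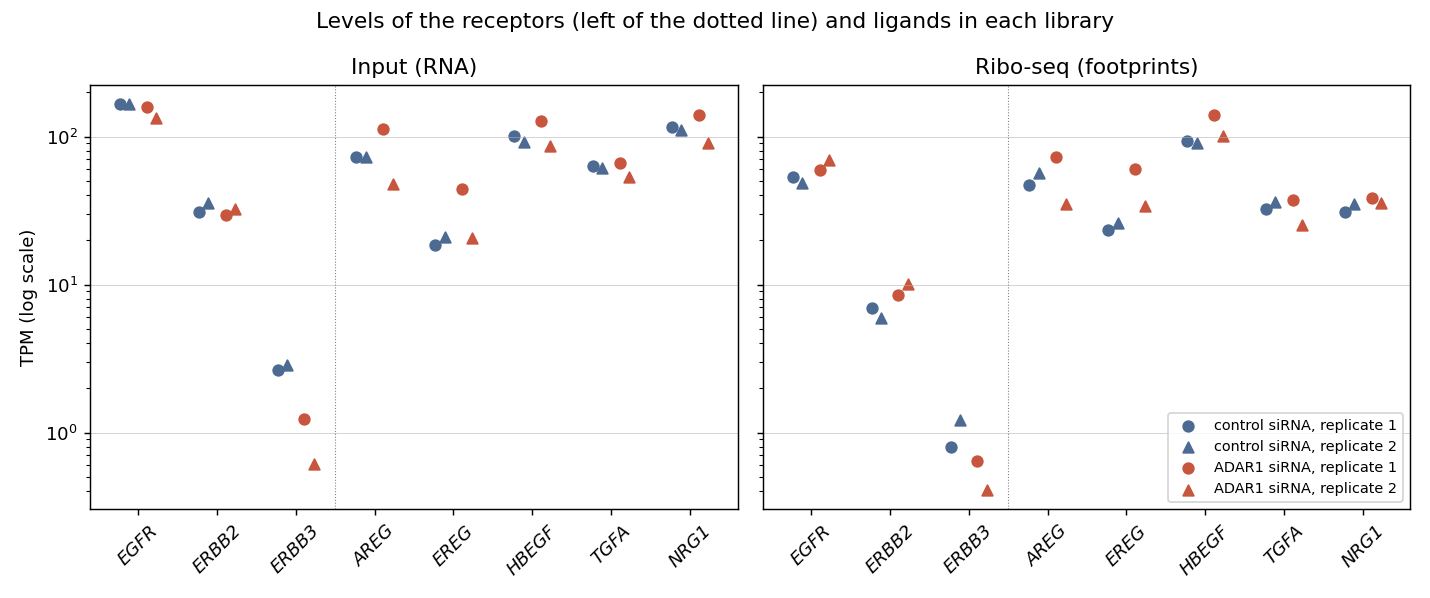
Level of each member in TPM on a logarithmic axis, in Input at the left and Ribo-seq at the right, with 1 point per library, control and ADAR1 siRNA by colour and replicate by marker shape. EGFR lies highest in control Input at 165.3 TPM in both libraries, HBEGF lies highest in Ribo-seq, and ERBB3 lies lowest in both assays.

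EGFR alone made up 80.2% to 83.7% of the summed TPM of the 3 receptors in the 4 Input libraries and 86.6% to 87.3% in the 4 Ribo-seq libraries. The make-up of the ligands differed more between the assays. NRG1, a neuregulin that binds ERBB3 and ERBB4, took 28.5% to 31.1% of the summed ligand TPM in Input and 11.1% to 15.4% in Ribo-seq. HBEGF took 25.6% to 28.9% and 37.1% to 43.7%. With ADAR1 siRNA the Input order was unchanged down to TGFA, but each range from EGFR through NRG1, HBEGF and AREG to TGFA overlapped that of its neighbour. EREG and ERBB2 overlapped as well, and TGFA and EREG did not. In ADAR1 siRNA Ribo-seq HBEGF still lay first and ERBB2 and ERBB3 last, without overlap, while EGFR, AREG, EREG, NRG1 and TGFA formed a chain of overlapping ranges between them.

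No member passed the threshold of a false discovery rate of 0.05 in RNA, in footprints or in translational efficiency, the footprint level relative to RNA. Tests were edgeR's quasi-likelihood tests on counts with Benjamini-Hochberg adjustment over all genes, and fold changes below are log2 values of ADAR1 siRNA over control. In RNA, 0 of 8 members were called, where the background was 0.253% of 12644 genes, and adjusted p-values by edgeR ran from 0.139 to 0.976. In footprints 0 of 8 were called against 3.54% of 12000 genes, with adjusted p-values from 0.0650 to 0.976. For translational efficiency 0 of 8 were called against 0.0463% of 12953 genes, with adjusted p-values from 0.0840 to 0.949. ADAR, the siRNA target, had -2.26 ± 0.32 in RNA (edgeR adjusted p = 0.0527) and -2.04 ± 0.47 in footprints (edgeR adjusted p = 0.0485). The loss of the target itself thus missed the RNA threshold, so the lack of a call does not show that a member was unchanged. An unadjusted p under 0.05 was reached by EGFR and ERBB3 in RNA (2 of 8, against 25.3% of all genes), by ERBB2, EREG and HBEGF in footprints (3 of 8, against 24%) and by EGFR and ERBB2 in translational efficiency (2 of 8, against 22.7%). DESeq2, run as an alternative, called 0 members in RNA, 1 in footprints (EREG) and 2 in translational efficiency (EGFR and ERBB2), where it called 4.87%, 12.2% and 11.6% of the genes it gave an adjusted p.

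In RNA and in footprints, fits that left out 1 ADAR1 siRNA library called far more genes, with the lone library assumed to vary like the controls. In translational efficiency such fits called more genes when a Ribo-seq library was left out, and fewer when an Input library was. In RNA 5 of 8 members were called without replicate 1, where 31.9% of all genes were, and 6 of 8 without replicate 2, where 42.1% were. In footprints these counts were 2 of 8 against 15.3% and 5 of 8 against 28.1%. In translational efficiency without Ribo-seq replicate 2, 1 of 8 was called against 16.9%. When a control library was left out instead, no member passed in any comparison. The fold changes given below for such fits show how far a value depended on 1 library. The calls do not show this, and are read against these shares.

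The median log2 fold change of the 8 members was -0.04 in RNA, 0.25 in footprints and 0.40 in translational efficiency, beside medians over all tested genes of 0.00, 0.05 and 0.09. The fitted value lay above 0 for 3 members in RNA, 6 in footprints and 8 in translational efficiency, and for 50.6%, 54.4% and 57.3% of all tested genes. Library-scaled counts (log2 CPM) of the groups did not overlap for 3 members in RNA, 1 higher (28.5% of all genes) and 2 lower (29.7%), and 58.2% of all genes were in either state. In footprints 4 members lay higher without overlap and 0 lower, against 30.1% and 26.2% of all genes.

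**Figure D2:**
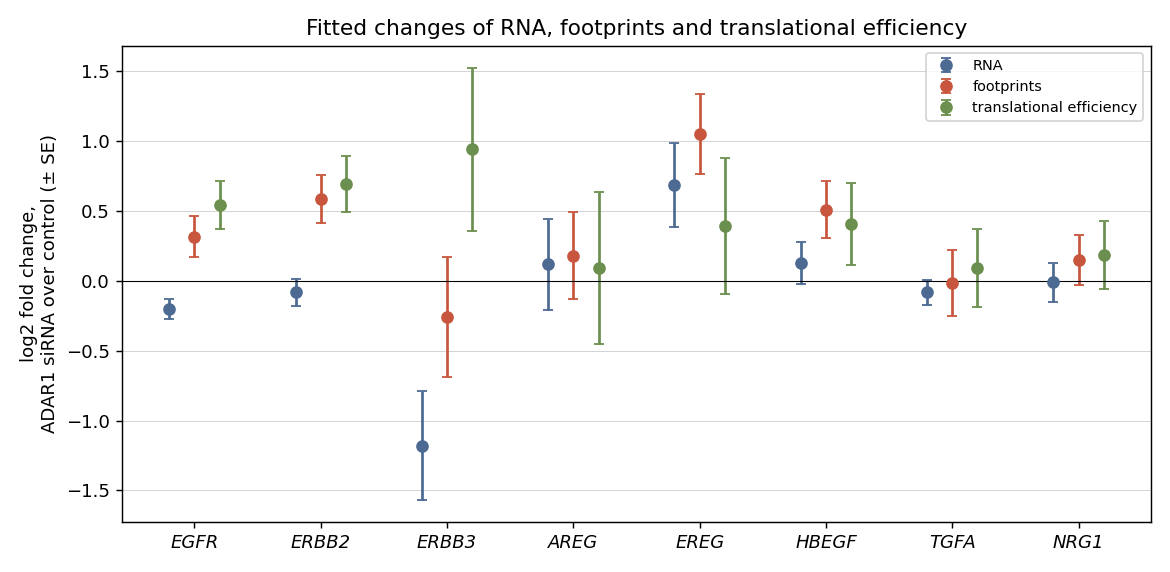
Fitted log2 fold change of each member, ADAR1 siRNA over control, for RNA, footprints and translational efficiency, with bars for 1 standard error. EGFR lies at -0.20 in RNA and 0.32 in footprints, EREG has the highest footprint value at 1.05, and the error bars of AREG are among the widest of the ligands.

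EGFR, the receptor for AREG, EREG, HBEGF and TGFA, had lower RNA and higher footprint levels with ADAR1 siRNA, neither of which passed the adjusted threshold. Its Input level was 165.3 and 165.3 TPM in the controls and 157.7 and 133.8 TPM with ADAR1 siRNA. Its Ribo-seq level was 53.2 and 48.7 TPM in the controls and 59.5 and 69.1 TPM with ADAR1 siRNA. Both ADAR1 siRNA libraries thus lay below both controls in Input and above both in Ribo-seq, a combination found in 7.57% of 11743 genes tested in both assays. In RNA its log2 fold change was -0.20 ± 0.07 (SE) (edgeR adjusted p = 0.153) and 0.32 ± 0.15 in footprints (edgeR adjusted p = 0.215). The difference between the assays, tested as the interaction of assay and siRNA, was 0.54 ± 0.17 (edgeR adjusted p = 0.104). Leaving out 1 library changed these calls: RNA passed without ADAR1 siRNA Input replicate 1 (-0.27) or replicate 2 (-0.13), and footprints (0.33) and translational efficiency (0.61) passed without ADAR1 siRNA Ribo-seq replicate 2. In those fits 31.9%, 42.1%, 28.1% and 16.9% of all genes passed. The non-coding gene EGFR-AS1 overlaps EGFR and is not a row of the table, and with the strand setting of the counting not given in the sources used here, reads of the pair cannot be told apart.

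ERBB2, the partner receptor that has no ligand of its own, was higher in both ADAR1 siRNA Ribo-seq libraries. Footprint levels were 6.98 and 5.90 TPM in the controls and 8.55 and 10.1 TPM with ADAR1 siRNA, without overlap. Input levels were 31.1 and 35.5 against 29.5 and 32.4 TPM, which overlapped. The log2 fold change was 0.59 ± 0.17 in footprints (edgeR adjusted p = 0.0806), -0.08 ± 0.10 in RNA (edgeR adjusted p = 0.635) and 0.69 ± 0.20 in translational efficiency (edgeR adjusted p = 0.0840). The footprint value passed without ADAR1 siRNA Ribo-seq replicate 1 (0.68) or replicate 2 (0.44). It did not pass without control Ribo-seq replicate 1 (0.75) or replicate 2 (0.44). In RNA the fold change was 0.02 without ADAR1 siRNA Input replicate 1 and -0.19, past the threshold, without replicate 2. ERBB2 was the only member that did not lie higher in ADAR1 siRNA replicate 1 than in replicate 2 in either assay. Its annotated span shares 149 bases with MIEN1, another row of the table.

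ERBB3, a receptor with a weak kinase that binds neuregulins, had the lowest level and the largest negative RNA value of the set. It lies on chromosome 12 from 56080108 to 56103505. Its Input counts were 52 and 66 in the controls and 36 and 17 with ADAR1 siRNA, and its Input level was 2.65 and 2.85 against 1.24 and 0.611 TPM. Both ADAR1 siRNA libraries lay below both controls, and the log2 fold change was -1.18 ± 0.39 (edgeR adjusted p = 0.139). It passed, at -1.84, when ADAR1 siRNA Input replicate 1 was left out, and did not, at -0.72, when replicate 2 was. Ribo-seq counts were 21 and 25 against 26 and 24, in deeper libraries, and the log2 fold change was -0.26 ± 0.43 (edgeR adjusted p = 0.751). The counts that 1 TPM stood for, relative to the median gene, varied for ERBB3 by 1.48-fold among Input libraries and 1.98-fold among Ribo-seq libraries, where 95% of genes varied by less than 1.11-fold and 1.20-fold. For this gene the TPM values therefore differ from the counts on which the test was run, and the footprint SE of 0.43 bounds what can be said of its footprints.

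EREG, epiregulin, which binds EGFR and ERBB4, had the highest footprint fold change of the 8. Its Ribo-seq level was 23.3 and 26.0 TPM in the controls and 60.1 and 34.1 TPM with ADAR1 siRNA. Both treated libraries lay above both controls, and replicate 1 was much further above than replicate 2. The log2 fold change was 1.05 ± 0.29 (edgeR adjusted p = 0.0650). It passed, at 1.42, when ADAR1 siRNA Ribo-seq replicate 2 was left out, and did not, at 0.48, when replicate 1 was. In Input the levels were 18.5 and 21.0 against 44.4 and 20.7 TPM, so replicate 1 was high and replicate 2 lay within the control range in TPM and just above it in CPM. The RNA log2 fold change was 0.69 ± 0.30 (edgeR adjusted p = 0.215), 1.11 and called without replicate 2, and 0.09 without replicate 1. EREG took 5.01% and 5.87% of the summed ligand TPM in control Input and 9.06% and 6.89% with ADAR1 siRNA, and 10.3% and 10.6% against 17.2% and 14.7% in Ribo-seq.

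AREG, amphiregulin, an EGFR ligand and the neighbour of EREG, lay on opposite sides of the controls in the pair of ADAR1 siRNA libraries. Input levels were 72.2 and 72.8 TPM in the controls, 113.0 TPM in ADAR1 siRNA replicate 1 and 48.1 TPM in replicate 2. Ribo-seq levels were 47.3 and 57.0 TPM, then 72.9 and 35.2 TPM. In both assays replicate 1 was above both controls and replicate 2 below both. The log2 fold change of the group was 0.12 ± 0.33 in RNA (edgeR adjusted p = 0.846) and 0.18 ± 0.31 in footprints (edgeR adjusted p = 0.765), and these averages describe neither library. Without replicate 1 the value was -0.57 in RNA and -0.55 in footprints, and without replicate 2 it was 0.58 and 0.62. All 4 of these passed the threshold in fits that called 31.9%, 15.3%, 42.1% and 28.1% of all genes, and their signs were opposite.

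HBEGF footprints were 92.8 and 90.7 TPM in the controls and 140.4 and 101.4 TPM with ADAR1 siRNA. Both treated libraries lay above the controls, with a log2 fold change of 0.51 ± 0.20 (edgeR adjusted p = 0.167). The value was 0.75 and called without ADAR1 siRNA replicate 2, and 0.16 without replicate 1. In Input HBEGF was at 100.5 and 91.5 against 127.0 and 86.7 TPM, where replicate 1 was above and replicate 2 below both controls (0.13 ± 0.15, edgeR adjusted p = 0.621). Without Input replicate 2 the RNA value was 0.35 and called, and without replicate 1 it was -0.12.

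TGFA, transforming growth factor alpha, and NRG1 had the smallest footprint fold changes of the ligands. TGFA, on chromosome 2 from 70447284 to 70553826, stood at 63.3 and 61.6 against 66.1 and 53.6 TPM in Input (-0.08 ± 0.09) and at 32.6 and 36.1 against 37.3 and 25.4 TPM in Ribo-seq (-0.02 ± 0.24). NRG1 stood at 115.1 and 110.0 against 139.6 and 91.0 TPM in Input (-0.01 ± 0.14) and at 30.9 and 35.1 against 38.7 and 35.8 TPM in Ribo-seq (0.15 ± 0.18). Replicate 1 was again above the controls and replicate 2 below in all of these except NRG1 footprints, where both treated libraries were above the controls in TPM but not in CPM. In RNA, leaving out ADAR1 siRNA replicate 1 gave -0.19 for TGFA and -0.25 for NRG1, both called, and leaving out replicate 2 gave 0.03, not called, and 0.20, called. In footprints the same omissions gave -0.42 and 0.25 for TGFA and -0.06 and 0.28 for NRG1, with no call.

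On the log2 CPM scale, all 5 ligands were higher in ADAR1 siRNA replicate 1 than in replicate 2, in Input and in Ribo-seq alike. Of all 8 members, 7 were so in each assay on that scale, while in TPM the EGFR footprint level was lower in replicate 1. Of 11743 genes tested in both assays, 29.2% were higher in replicate 1 in both. In AREG the gap was 2.22-fold in Input, as large or larger in 2.02% of genes in either direction, and 2.33-fold in Ribo-seq, as large in 2.16%. The gap of EREG was 2.03-fold and 1.98-fold. Over all genes the SD of the log2 gap between ADAR1 siRNA replicates was 0.40 in Input and 0.49 in Ribo-seq, against 0.28 and 0.41 between controls. ADAR itself differed in the opposite direction, with less of it left in replicate 1, and whether the depth of depletion had a part in the ligand values was not tested.

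**Figure D3:**
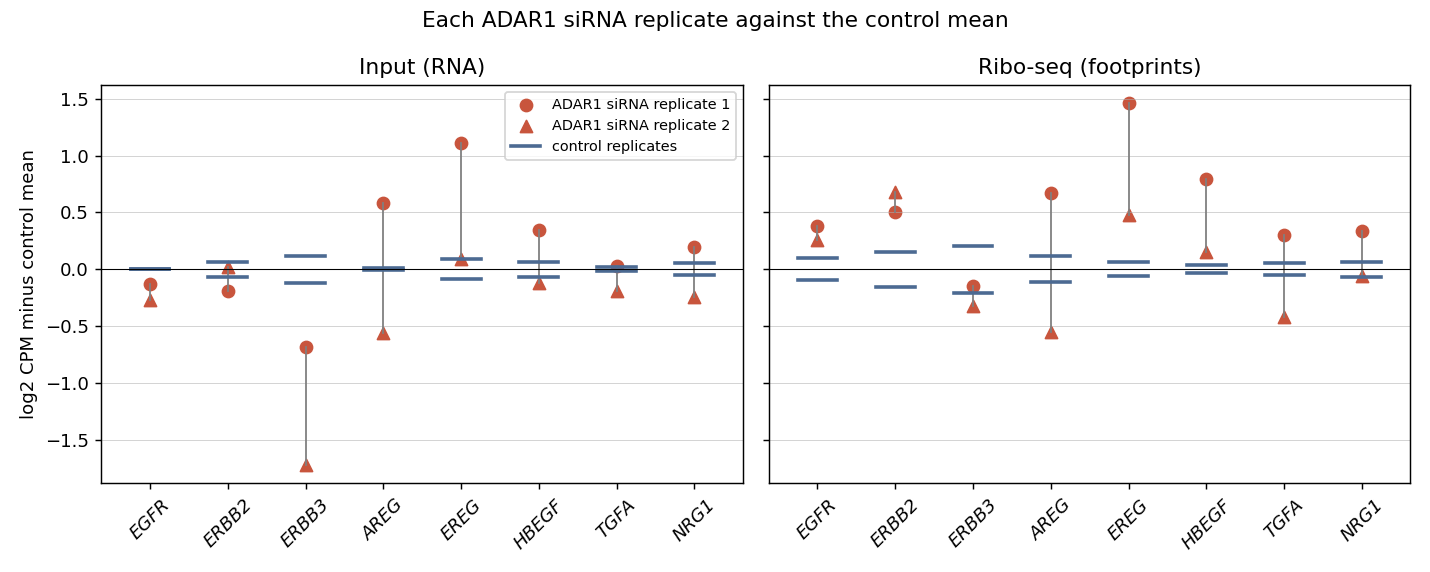
Log2 CPM of each ADAR1 siRNA replicate minus the mean of the controls of its assay, in Input at the left and Ribo-seq at the right. Circles are replicate 1, triangles replicate 2, and the horizontal bars mark both controls around 0. AREG lies at 0.58 and -0.56 in Input and at 0.67 and -0.55 in Ribo-seq, and every ligand has its circle above its triangle.

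Summed over the 5 ligands, Input TPM was 369.6 and 356.8 in the controls and 490.1 and 300.1 with ADAR1 siRNA. In Ribo-seq the sums were 226.8 and 244.9 against 349.3 and 232.0 TPM. Replicate 1 exceeded both controls in both assays, and replicate 2 did not exceed the controls in Input and lay between them in Ribo-seq.

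The members differed widely in how many footprints they carried per RNA. Translational efficiency as the authors' deposited table gives it divides Ribo-seq TPM by the Input TPM of the library with the same siRNA and number. Its control median was 0.411 over the 9496 genes that averaged 50 or more counts. The authors' deposited ratio was 1.26 and 1.24 for EREG in the controls and 0.923 and 0.992 for HBEGF, which are 3.04 and 2.33 times the median gene. For AREG it was 0.655 and 0.783, and for TGFA 0.514 and 0.586. It lay below the median gene for EGFR (0.322 and 0.295), NRG1 (0.269 and 0.319) and ERBB2 (0.224 and 0.166). ERBB3, at 0.303 and 0.426, rests on few counts.

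These ratios depend on the length by which each assay was scaled. The counts that 1 TPM stood for, relative to the median gene of the library, were 3.65 times higher in Input than in Ribo-seq for EREG and 3.44 times higher for TGFA, while 90% of 9103 genes lay between 0.489 and 2.73. The length behind a TPM value thus differed between the assays for the same gene. A ratio of count shares with no length, an alternative chosen after seeing the data, placed AREG at 2.49 and HBEGF at 1.44 times the median gene, but EREG at 0.793 and TGFA at 0.370. AREG and HBEGF were above and EGFR, ERBB2, ERBB3 and NRG1 below the median gene by both ratios, and EREG and TGFA changed sides.

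**Figure D4:**
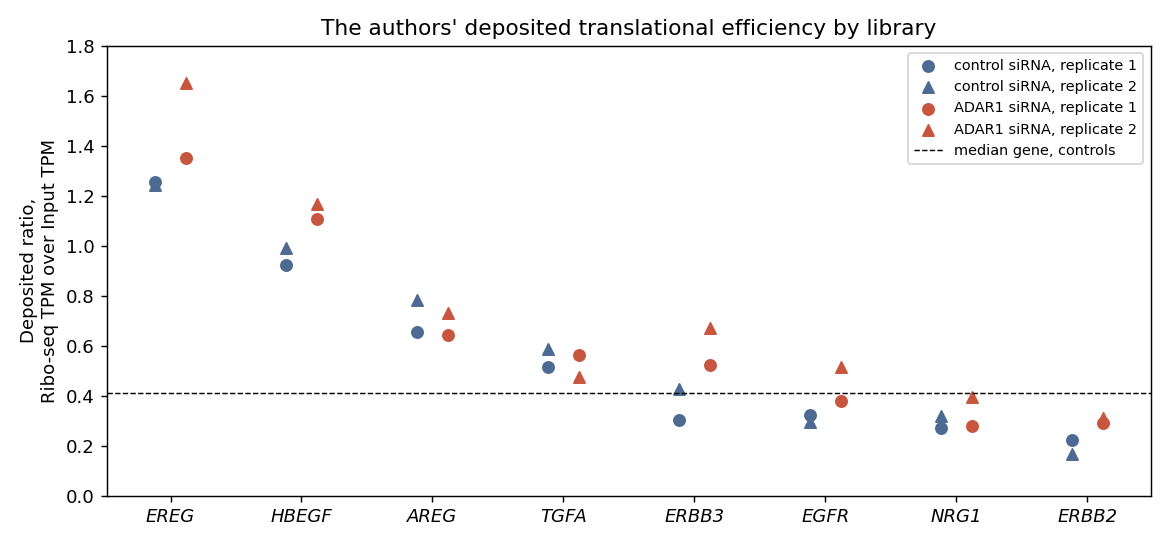
The authors' deposited translational efficiency, Ribo-seq TPM over Input TPM, of each member in each library, with a dashed line at the median gene of the controls, 0.411. EREG and HBEGF lie highest, and EREG reaches 1.65 in ADAR1 siRNA replicate 2.

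With ADAR1 siRNA the authors' deposited ratio was 1.35 and 1.65 for EREG, 1.11 and 1.17 for HBEGF, 0.377 and 0.516 for EGFR, 0.290 and 0.311 for ERBB2 and 0.521 and 0.669 for ERBB3. In these 5 members both treated libraries lay above both controls, and 0 members lay below without overlap, where 24.6% of all genes lay above and 28.3% below. For the other members the groups overlapped, at 0.645 and 0.732 for AREG, 0.564 and 0.474 for TGFA and 0.277 and 0.393 for NRG1. The mean log2 ratio was lower with ADAR1 siRNA for AREG (-0.06) and TGFA (-0.09), where the count model gave 0.09 ± 0.54 and 0.09 ± 0.28. Unlike the deposited ratio, that model did not pair libraries of the same number. The count model gave 0.94 ± 0.59 for ERBB3, 0.41 ± 0.29 for HBEGF, 0.39 ± 0.49 for EREG and 0.19 ± 0.24 for NRG1, with edgeR adjusted p-values from 0.371 to 0.693.

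Around the members, 84 further genes of the pathway were examined in 6 lists, all of them present in the table. Among the other receptor and ligand genes, ERBB4, EPGN, NRG3 and NRG4 had too few counts to be tested, and NRG3 had 0 counts in all 8 libraries, where a count of 0 allows up to 3 counts in each. EGF, the founding ligand, stood at 3.07 and 3.39 TPM in control Input and 2.04 and 2.93 TPM with ADAR1 siRNA (-0.37 ± 0.22). NRG2, at 1.26 and 1.92 TPM in control Input, and the EGFR ligand BTC, at 1.25 and 2.07 TPM, were also low. The log2 fold change of NRG2 was -0.33 ± 0.35 in RNA, 0.41 ± 0.47 in footprints and 0.77 ± 0.61 in translational efficiency. That of BTC was 0.15 ± 0.37 in RNA and -0.68 ± 0.71 in translational efficiency. None of this list was called in any comparison by edgeR, and 0 had an unadjusted p under 0.05.

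Of 9 genes of ligand shedding, 3 rose in footprints and 0 fell, where 3.54% of all genes were called in either direction and 1.88% higher. ADAM9, a membrane metalloprotease, stood at 42.4 and 39.6 TPM in control footprints and 64.8 and 79.4 TPM with ADAR1 siRNA, and rose by 0.90 ± 0.14 on the log2 scale (edgeR adjusted p = 0.0278). ADAM10, a main sheddase of several EGFR ligands, went from 53.7 and 50.9 to 81.7 and 81.9 TPM and rose by 0.71 ± 0.15 (edgeR adjusted p = 0.0422). ADAM12, which can cleave HBEGF, rose by 2.43 ± 0.55 (edgeR adjusted p = 0.0460), from 5 and 6 counts to 28 and 51, a low level at which log2(TPM + 1) gave 0.59. All 9 genes had a footprint value above 0, with a median of 0.32, where 54.4% of all tested genes had a value above 0. In RNA 0 of the 9 were called and 6 had an unadjusted p under 0.05, against 25.3% of all genes. ADAM9 RNA was at 214.4 and 214.8 TPM in the controls and 310.4 and 326.3 TPM with ADAR1 siRNA (0.53 ± 0.08, edgeR adjusted p = 0.0527). ADAM15 RNA had a value of -0.29 ± 0.06. In translational efficiency 0 were called and 8 had an unadjusted p under 0.05, against 22.7% of all genes. ADAM17, the other main sheddase, was at 0.46 ± 0.15 and RHBDF2, a rhomboid-like partner of ADAM17, at 0.60 ± 0.20. The 3 calls were lost when 1 control library was left out, with folds close to those above. Without control Ribo-seq replicate 1 or 2, ADAM9 had 0.96 and 0.83 (edgeR adjusted p = 0.0556 and 0.269), ADAM10 had 0.77 and 0.65 (0.156 and 0.475) and ADAM12 had 2.21 and 2.67 (0.106 and 0.145). Those omissions took the footprint calls over all genes from 425 to 380 and 77. ADAM12 was also lost without ADAR1 siRNA Ribo-seq replicate 2 (1.94, edgeR adjusted p = 0.0777).

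Downstream of the receptors, none of the 18 adaptor and RAS-ERK genes was called in any comparison by edgeR, with 6, 3 and 4 at an unadjusted p under 0.05 in RNA, footprints and translational efficiency. Over all genes the shares at an unadjusted p under 0.05 were 25.3%, 24% and 22.7%. MAP2K2, the kinase MEK2, had -0.41 ± 0.08 in RNA and 0.76 ± 0.17 in translational efficiency. NRAS had 0.36 ± 0.09 in RNA, and the kinase gene ARAF had 0.47 ± 0.17 in footprints. The 15 genes of the PI3K, phospholipase C and STAT branches had 0 calls as well, with 8, 3 and 4 at an unadjusted p under 0.05. AKT1, a kinase activated through PI3K, had 0.80 ± 0.20 in footprints (edgeR adjusted p = 0.0571) and 1.08 ± 0.20 in translational efficiency (edgeR adjusted p = 0.0534). The regulatory subunit gene PIK3R2 had -0.55 ± 0.10 in RNA.

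Of 19 genes of receptor inhibition and turnover, 0 were called, with 7, 7 and 5 at an unadjusted p under 0.05. Over all genes these shares were 25.3%, 24% and 22.7%. SPRED1, an inhibitor of RAS-ERK signalling, had a footprint value of 1.03 ± 0.25 that narrowly missed the threshold (edgeR adjusted p = 0.0502). EPN1, an endocytic adaptor, had -0.37 ± 0.07 in RNA and 0.67 ± 0.18 in footprints, and HGS, which sorts ubiquitinated receptors in endosomes, had -0.37 ± 0.06 in RNA. Of 16 genes known to respond to ERK, 1 fell in footprints, where 1.67% of all genes were called lower, and 0 rose. This was DUSP6, an ERK phosphatase, at 170.2 and 217.2 TPM in the controls and 86.2 and 120.9 TPM with ADAR1 siRNA (-0.82 ± 0.17, edgeR adjusted p = 0.0422), and without control Ribo-seq replicate 2 its value was -0.67 and its adjusted p 0.396. The list's median was -0.21 in RNA and 0.16 in footprints. An unadjusted p under 0.05 was reached by 6 and 5 of its genes, beside 25.3% and 24% of all genes. CCND1, cyclin D1, had -0.34 ± 0.06 in RNA and -0.46 ± 0.14 in footprints, and the receptor gene EPHA2 had -0.40 ± 0.06 in RNA. EGR1, an immediate early transcription factor named here after its values were seen, was at 8.17 and 7.93 TPM in control Input and 79.0 and 19.7 TPM with ADAR1 siRNA (2.57 ± 0.59, edgeR adjusted p = 0.0832), with replicate 1 again the higher.

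**Figure D5:**
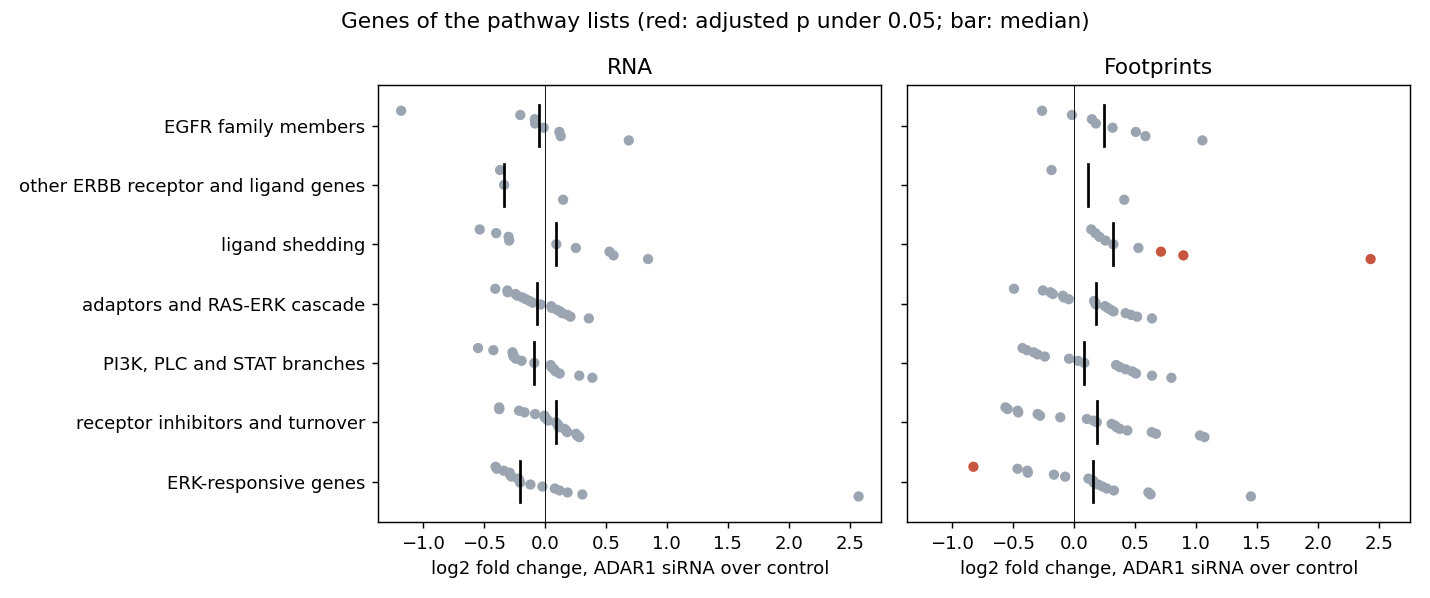
Fitted log2 fold change of each tested gene of the EGFR family and the 6 pathway lists, ADAR1 siRNA over control, for RNA and footprints, with a bar at each list's median. Red points passed the adjusted threshold: ADAM9, ADAM10 and ADAM12 of the shedding list to the right of 0 and DUSP6 of the ERK-responsive list to the left, all in footprints.

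The genes whose pattern over the 8 libraries lay nearest to 2 members were looked up among 9736 genes that averaged 50 or more counts in both assays, by Euclidean distance over log2 CPM minus the control mean of each assay. For ERBB3, the member of smallest p in RNA, these were GALNT12 (distance 0.569), SPDEF (0.635) and ABCA3 (0.738), where the median gene lay at 2.02. GALNT12 had -0.84 and -1.74 in the ADAR1 siRNA Input libraries, beside -0.69 and -1.72 for ERBB3. For EREG, the member of smallest p in Ribo-seq, they were CMKLR1 (0.465), CSF2 (0.477) and CEBPD (0.502), with a median of 1.956. CSF2, the cytokine GM-CSF, had 1.35 and -0.24 in Input and 1.71 and 0.50 in Ribo-seq, beside 1.11, 0.09, 1.46 and 0.47 for EREG. The 8 values of a gene share libraries and depth with those of every other, so these distances are a description.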

How the data were processed

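Input and Ribo-seq libraries of MDA-MB-231 cells, 2 per siRNA and assay, were grouped by their titles. Per the labels' protocols, lysates were spun on sucrose gradients, and footprint-sized fragments (Ribo-seq) and slightly longer ones (Input) were cut from gels, ligated to adapters and amplified by PCR. Cutadapt, featureCounts, STAR and Bowtie2 were used on build GRCh38 (hg38), per the submitters' processing notes. For versions, settings and strand, "not given in the sources used here" applies. The authors deposited an estimated count and a TPM per gene and library, and a translational efficiency, the ratio of Ribo-seq to Input TPM. That definition was checked, and 100% of the deposited ratios equalled it within 1%. The origin of the fractional counts is not stated either. Gene numbers were matched to symbols for 19669 of 19892 genes.

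Estimated counts were rounded for edgeR 4.0.16 (R 4.3.3): TMM scaling, filterByExpr, two-sided quasi-likelihood tests and Benjamini-Hochberg adjustment at 0.05. The Input libraries gave the RNA test, the Ribo-seq libraries the footprint test, and all 8 together the assay-by-siRNA interaction that is called translational efficiency. Each SE is the log2 fold change over the root of its quasi-F. With 2 libraries against 2, the smallest exact permutation p (two-sided) is 0.333. Log2 CPM used a prior count of 2. The tests were also run on simulated data with known changes, whose outcome is not given here. Depth, with the number of libraries, limits the precision, and PCR reads without molecular identifiers are not independent molecules.

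The members and gene lists were chosen with earlier results of these data known. Named genes are the 8 members, ADAR, and from each pathway list those called and the 2 of smallest p per comparison, not all of which are given for every comparison. A few genes under this rule are left out of the text but kept in the counts of their lists. The 3 nearest genes are named for the members of smallest p in RNA and in Ribo-seq. Alternatives were upper-quartile scaling, DESeq2 1.42.0, other filters, a replicate block, 1 fit of all 8 libraries, and leaving out each library. Differences of group means of log2(TPM + 1) and log2(TPM + 0.1) were also taken, without a test.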

Additional observations from a re-analysis of the deposited data

Results flagged for a closer look

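EGFR was the 1 member whose ADAR1 siRNA libraries lay apart from the controls in both assays and in opposite directions. Both lay below the controls in Input (157.7 and 133.8 TPM against 165.3 and 165.3) and above them in Ribo-seq (59.5 and 69.1 TPM against 53.2 and 48.7). The difference between the assays was tested as an interaction of assay and siRNA, and its log2 value was 0.54 ± 0.17 with an edgeR adjusted p of 0.104. DESeq2 gave 0.53 with an adjusted p of 0.0360, where it called 11.6% of genes. Lower RNA with higher footprints, both without overlap, was found in 7.57% of all genes tested in both assays. Fitted values also had opposite signs in RNA and footprints for ERBB2 (-0.08 and 0.59) and NRG1 (-0.01 and 0.15). The interaction of ERBB2 was larger than that of EGFR, at 0.69 ± 0.20 (edgeR adjusted p = 0.0840, DESeq2 adjusted p = 0.0475).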

How the results depend on the processing

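The number of genes called depended strongly on the setting. In RNA, 32 genes were called, and 11 with upper-quartile scaling, 449 by DESeq2, 95 without the low-count filter, 73 with a mean count of at least 50, 14 with all 8 libraries in 1 fit and 0 to 5420 with 1 library left out. In footprints 425 were called (225 higher, 200 lower), and 978 by DESeq2 (391 and 587), 1693 without the filter, 1936 in 1 fit of all libraries and 77 to 3415 with 1 library left out. For translational efficiency 6 were called, and 982 by DESeq2, 854 without the filter, 2 with a mean of at least 50 and 0 to 2252 with 1 library left out. Upper-quartile scaling split the footprint calls into 311 higher and 176 lower. Against 0 members called, 1 library left out gave 0 to 6 in RNA, 0 to 5 in footprints and 0 to 1 in translational efficiency. DESeq2 gave 1 in footprints (EREG) and 2 in translational efficiency (EGFR and ERBB2). Without the filter 3 were called in footprints (HBEGF, ERBB2 and EREG), and in 1 fit of all libraries 1 (ERBB2). Those fits also called more genes of the whole table (1693 and 1936 against 425). These member counts are therefore not read as a result about the members.

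With the replicate number as a block, 1095 genes were called in RNA and 2102 in footprints. The members called were 1 in RNA (EREG, 0.61, edgeR adjusted p = 0.0435) and 3 in footprints (HBEGF, ERBB2 and EREG). In translational efficiency the block was each siRNA and number together, which paired its Input and Ribo-seq libraries. That fit called 1169 genes and 1 member (ERBB2). The translational efficiency of ERBB2 had an edgeR adjusted p of 0.0379 in that fit. Each of these fits called more genes of the whole table than its main fit, so the member calls are not read as a result about the members. The labels do not say that a number marks a shared culture or day. With 2 pairs, the correlation of same-numbered deviations between control and ADAR1 siRNA was 0.00047 in Input and 0.018 in Ribo-seq, and between Input and Ribo-seq it was 0.0078 for control and 0.379 for ADAR1 siRNA. The deviations thus went together by number between the ADAR1 siRNA assays, but not between the control assays and not across siRNAs. The block across siRNAs and the pairing of assays are both given as alternatives only.

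Directions turned for small values. On log2(TPM + 1) and log2(TPM + 0.1), NRG1 RNA was 0.0030 and 0.0028, and AREG footprints -0.033 and -0.035. TGFA footprints were 0.037 with upper-quartile scaling and 0.012 in 1 fit of all libraries. The log2 of the deposited ratio was -0.060 for AREG and -0.086 for TGFA. With 1 library left out, RNA values ran from -0.57 to 0.58 for AREG, -0.19 to 0.017 for ERBB2, -0.12 to 0.35 for HBEGF, -0.25 to 0.20 for NRG1 and -0.19 to 0.027 for TGFA. Footprint values ran from -0.55 to 0.62 for AREG, -0.056 to 0.28 for NRG1 and -0.42 to 0.25 for TGFA. Translational efficiency ran from -0.66 to 0.68 for AREG, -0.20 to 0.90 for EREG, -0.083 to 0.38 for NRG1 and -0.33 to 0.42 for TGFA. The interaction fits did not pair Input and Ribo-seq libraries of the same number, so each omission kept the partner of the omitted library. The deposited ratio, which pairs them, was 0.655 and 0.783 for AREG in the controls and 0.645 and 0.732 with ADAR1 siRNA. The causes were not tested beyond the fewer libraries in those fits, in which a lone library was assumed to vary like the other group. ERBB3 had no value with a mean of at least 50 and no adjusted p from DESeq2. Of the other values for single genes, 302 kept direction and side of the threshold, 28 passed it newly, 8 no longer passed and 6 moved. The ratio without length was chosen after seeing the data.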
